A study of Rattus norvegicus with 20 samples.

Results

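The genes described here are 10 genes by which the thick ascending limb of the rat kidney is recognised or through which it works: Umod, Slc12a1, Kcnj1, Cldn10, Cldn16, Cldn19, Casr, Ptger3, Ppp1r1a and Esrrb. They were taken by gene symbol from the 2 deposited tables and followed by gene identifier, and 10 of 10 were found in both, among 32907 genes listed in either table. Bulk RNA sequencing of whole kidney had been done in wild-type male Wistar rats aged 10 to 12 weeks to compare the kidney effects of 2 calcineurin inhibitors, immunosuppressants given after transplantation. Rats received cyclosporine A (n = 4) or its saline vehicle (n = 4), or tacrolimus at a target trough of 3.5 ng/ml (n = 6) or the solvent it was given in, 75% polyethylene glycol with 25% DMSO (DMSO/PEG, n = 6). Each was delivered for 28 days from an osmotic minipump under the skin. The groups carried no other genotype or agent. The labels number the libraries of a group without saying that each came from a separate rat, so p-values measure the spread between these libraries.

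The thick ascending limb reabsorbs sodium chloride without water and so dilutes the urine and feeds the concentrating gradient of the medulla. Sodium, potassium and chloride enter its cells through the apical cotransporter NKCC2, the product of Slc12a1 and the target of loop diuretics, and potassium returns to the lumen through the channel ROMK, the product of Kcnj1. The resulting lumen-positive voltage drives cations between the cells, through pores in which claudin-16 and claudin-19 pass calcium and magnesium and claudin-10 passes sodium. The basolateral calcium-sensing receptor, encoded by Casr, restrains this transport when blood calcium is high. Uromodulin, the product of Umod, is made in this segment and shed into the urine, where it is the most abundant protein in health.

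The 2 genes on which the cyclosporine A result turned were Umod and Slc12a1, and the bases just before their annotated starts are shown as the stretch of regulatory sequence at hand for each. Both run 5′ to 3′ on the strand of the gene and end at the base before the annotated start, from RefSeq on assembly GRCr8. For Umod this is chr1:183261017-183261266 on the minus strand, and for Slc12a1 chr3:132859340-132859589 on the plus strand, the earlier of its 2 annotated starts. Capitals mark TATAAA, the TATA box letters, in Umod, and TTAATNATT, core letters of the binding site of the kidney transcription factor HNF1, in Slc12a1.
Umod: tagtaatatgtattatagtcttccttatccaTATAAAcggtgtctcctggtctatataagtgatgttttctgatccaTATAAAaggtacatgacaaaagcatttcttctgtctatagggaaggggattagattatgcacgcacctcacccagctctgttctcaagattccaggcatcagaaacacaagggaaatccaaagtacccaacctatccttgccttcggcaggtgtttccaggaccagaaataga
Slc12a1: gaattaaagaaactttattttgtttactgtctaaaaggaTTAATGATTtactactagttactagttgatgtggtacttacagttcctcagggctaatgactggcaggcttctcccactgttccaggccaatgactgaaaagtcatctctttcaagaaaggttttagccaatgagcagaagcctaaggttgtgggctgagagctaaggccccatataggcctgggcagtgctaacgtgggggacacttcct
TATAAA was searched on the strand of the gene, and it began 219 and 173 bases before the Umod start. It also stood 41 bases before a Kcnj1 start, and 8.06% of 33469 rat promoter windows of the same length hold it. TTAATNATT, searched on both strands, occurred in the Slc12a1 window 211 bases before the start, in no other window of these genes, and in 1.37% of all windows. AAGGTCA, the letters bound by oestrogen-related receptors such as the Esrrb product, was found in 0 of 11 windows of these genes on either strand, against 3.99% of all windows. GGAAAA, the letters bound by NFAT factors, which calcineurin activates, was found on either strand in 1 of 11 windows, that of Cldn19, with 3 matches, against 21.6% of all windows. No matches of different motifs overlapped in these windows. A promoter window was found for 9 of the 10 genes, with Ppp1r1a unmatched, and a match or its absence describes letters in these 250 bases.

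Expression was measured as FPKM, the fragments of a gene divided by its length and by the depth of the library. Libraries of the cyclosporine A comparison held 30468839 to 34309115 fragments and those of the tacrolimus comparison 31670202 to 39358485. The mitochondrial genome supplied 59.8% ± 7.97 (SD, n = 4) of the fragments with saline and 84.7% ± 4.68 (SD, n = 4) with cyclosporine A, and the 2 ranges were apart (2-sided exact permutation p = 0.0286, the minimum for 70 arrangements, and 0.0762 with Benjamini-Hochberg adjustment over 8 library measures). Nuclear genes therefore had 10284068 to 17256964 fragments per saline library and 2905960 to 6549402 per cyclosporine A library. Cyclosporine A values are given as rescaled FPKM, the deposited FPKM divided by a size factor taken as the median ratio of its genes to a reference library, which is how the deposited tacrolimus values were already scaled. The 2 tables were scaled separately, and levels in one are not compared with levels in the other. All 10 genes had fragments in each of the 20 libraries, so the markers that define the segment were present in every library.

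In kidneys given saline the 10 genes spanned a wide range of rescaled FPKM, with Umod highest and Casr lowest. Umod averaged 327 ± 101 (SD, n = 4), Ppp1r1a 66.9 ± 13.0, Slc12a1 60.8 ± 9.88 and Cldn10 57.8 ± 3.85 rescaled FPKM. Of these neighbours in the order, Ppp1r1a overlapped Slc12a1 and Slc12a1 overlapped Cldn10 across libraries. Kcnj1 followed at 31.0 ± 3.8, then Ptger3 at 7.59 ± 1.67, Cldn19 at 5.78 ± 1.28 and Cldn16 at 3.36 ± 0.405 rescaled FPKM. Only the Ptger3 and Cldn19 ranges overlapped in that stretch. Esrrb at 0.719 ± 0.2 and Casr at 0.458 ± 0.0440 rescaled FPKM closed the order, and their ranges did not overlap. With DMSO/PEG the order of FPKM was Umod, Slc12a1, Ppp1r1a, Kcnj1, Cldn10, Ptger3, Cldn19, Cldn16, Esrrb and Casr. There Ppp1r1a and Kcnj1, Kcnj1 and Cldn10, Ptger3 and Cldn19, and Esrrb and Casr were neighbours with overlapping ranges.

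Cyclosporine A kidneys had lower levels of Umod, Slc12a1 and Cldn10 than saline kidneys in every library, and means of Kcnj1, Cldn19, Casr and Ppp1r1a that lay within the spread between libraries. Umod fell to 0.388 of its saline mean and passed the test across all genes, Slc12a1 stood at 0.514 of its saline mean and missed it narrowly, and Cldn10 stood at 0.740 and did not pass. Of the 10 genes, limma with Benjamini-Hochberg adjustment called 1 lower and 0 higher, while 0.282% of 13455 tested genes were called lower and 0.327% higher. In 3 of the 10 all cyclosporine A libraries lay below all saline libraries, against 6.11% of the tested genes, and in 0 they lay above, against 4.81%. The log2 change was below 0 in 8 of the 10, against 50.1% of genes, with a median of −0.12 beside −4.84e-04 for all genes. In whole kidney, fewer cells of the segment and less RNA in each of them cannot be told apart.

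Umod (ENSRNOG00000015557, deposited at chromosome 1, 189186026 to 189199376, minus strand) measured 471, 234, 299 and 304 rescaled FPKM in the saline libraries and 113, 130, 178 and 87.6 in the cyclosporine A libraries, each set in the order of replicates 1 to 4. All cyclosporine A libraries were below all saline libraries, and saline replicate 1 stood well above the other saline libraries. The group means were 327 ± 101 (SD, n = 4) and 127 ± 38.2 (SD, n = 4) rescaled FPKM, and the log2 change was −1.36 ± 0.25 (standard error, limma adjusted p = 0.0491). The call did not hold without any 1 library. Leaving out saline replicates 1, 2, 3 and 4 in turn gave log2 changes of −1.17, −1.50, −1.38 and −1.38 (limma adjusted p = 0.130, 0.0715, 0.123 and 0.136). Leaving out cyclosporine A replicates 1, 2, 3 and 4 gave −1.32, −1.38, −1.53 and −1.20 (limma adjusted p = 0.114, 0.0678, 0.0586 and 0.0586). The size of the change thus moved less than its place around the threshold.

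Slc12a1 (ENSRNOG00000005367, chromosome 3, 117421604 to 117498367, plus strand), the NKCC2 gene, measured 63.2, 46.3, 66.0 and 67.9 rescaled FPKM with saline and 29.1, 35.6, 37.5 and 22.9 with cyclosporine A. The lowest saline library, replicate 2, was above the highest cyclosporine A library, replicate 3. The means were 60.8 ± 9.88 (SD, n = 4) and 31.3 ± 6.65 (SD, n = 4), and the log2 change was −0.95 ± 0.18 (standard error, limma adjusted p = 0.0511). Without cyclosporine A replicate 4, the library with the fewest nuclear fragments, the change was −0.81 and passed (limma adjusted p = 0.0484), and without any other 1 library the adjusted p ran from 0.0563 to 0.159.

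**Figure D1:**
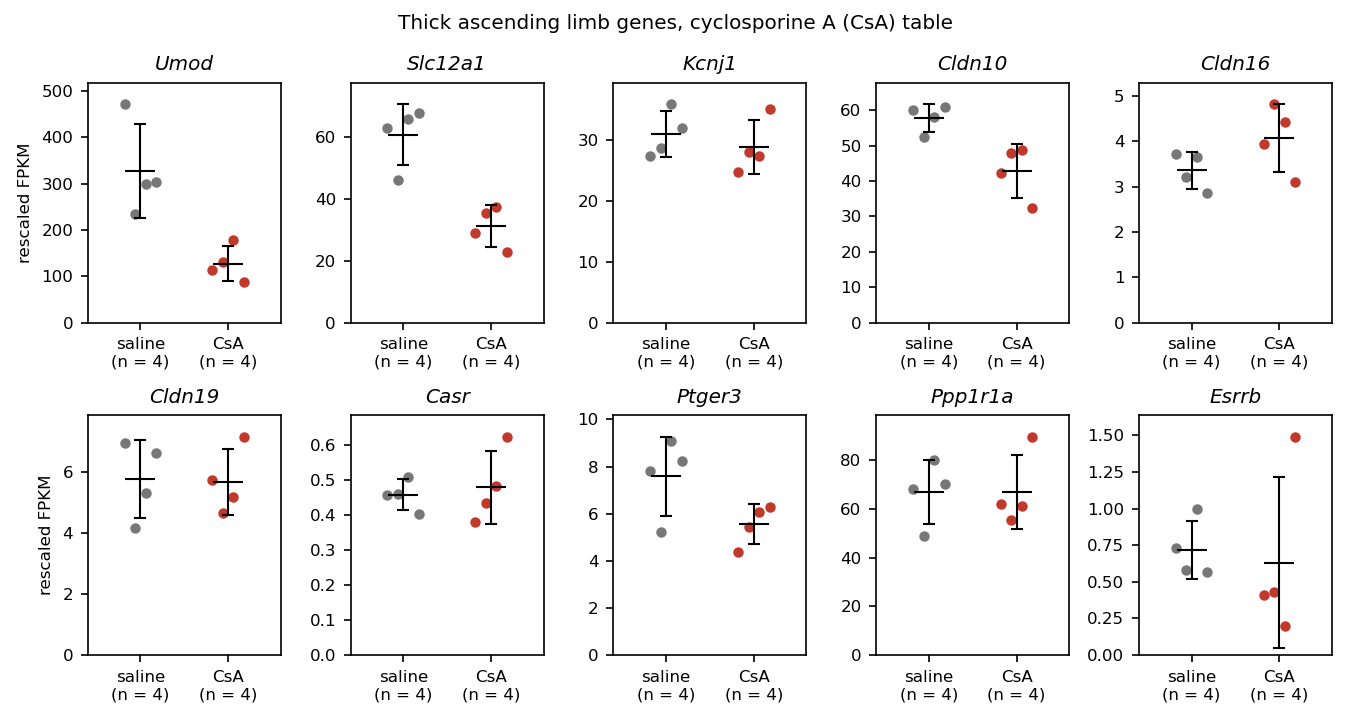
Rescaled FPKM of the 10 genes in the 4 saline and 4 cyclosporine A (CsA) libraries, 1 point per library in replicate order, with the mean and SD as black bars and a separate vertical axis from 0 for each gene. The 2 sets of points separate for Umod, Slc12a1 and Cldn10 and overlap for the other genes.

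Kcnj1 (ENSRNOG00000059005, chromosome 8, 33514042 to 33518165), which encodes the channel that recycles potassium for NKCC2, measured 27.3, 28.7, 35.8 and 32 rescaled FPKM with saline and 24.7, 28.1, 27.4 and 35.1 with cyclosporine A. The ranges overlapped, the second highest of the 8 values came from a cyclosporine A library, and the log2 change was −0.11 (95% interval −0.40 to 0.19, limma adjusted p = 0.747).

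The 3 claudin genes had changes on either side of 0. Cldn10 (ENSRNOG00000010085, chromosome 15, 104026601 to 104115748) measured 60.2, 52.3, 58.0 and 60.8 rescaled FPKM with saline and 42.1, 47.9, 48.9 and 32.3 with cyclosporine A. All drug libraries were lower, and the log2 change was −0.44 ± 0.14 (standard error, limma adjusted p = 0.156). Isoforms are not separated in these values, so they cover both the form of the thick ascending limb and the form that other tubule segments use. Cldn16 (ENSRNOG00000055138, chromosome 11, 77681794 to 77703255), one partner of the calcium and magnesium pore, measured 3.72, 3.21, 3.65 and 2.86 rescaled FPKM with saline and 3.95, 4.82, 4.44 and 3.10 with cyclosporine A. Its ranges overlapped with the higher mean under the drug, a log2 change of 0.21 (95% interval −0.11 to 0.54, limma adjusted p = 0.512). Cldn19 (ENSRNOG00000007922, chromosome 5, 138300107 to 138305683), the other partner, measured 6.98, 4.19, 5.34 and 6.63 with saline and 5.75, 4.66, 5.19 and 7.17 with cyclosporine A. The Cldn19 ranges lay on top of each other, with a log2 change of −0.013 (95% interval −0.40 to 0.37, limma adjusted p = 0.981). The sign of the Cldn19 change turned with the scaling, to 0.068 when libraries were scaled to their nuclear fragments.

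Of the 2 receptor genes, Casr was the lower by far. Casr (ENSRNOG00000002265, chromosome 11, 67188630 to 67258771) measured 0.459, 0.462, 0.510 and 0.402 rescaled FPKM with saline and 0.381, 0.434, 0.482 and 0.624 with cyclosporine A. These values rest on 30 to 131 fragments per library, the ranges overlapped, and the log2 change was 0.020 (95% interval −0.18 to 0.22, limma adjusted p = 0.944), on a scale that understates changes of genes this low. Ptger3 (ENSRNOG00000010325, chromosome 2, 263895241 to 263979698) encodes EP3, the prostaglandin E2 receptor that restrains salt transport in this segment. It measured 7.80, 5.21, 9.10 and 8.24 rescaled FPKM with saline and 4.39, 5.45, 6.08 and 6.27 with cyclosporine A. Of the saline libraries only replicate 2 fell within the cyclosporine A range, and the log2 change was −0.38 ± 0.17 (standard error, limma adjusted p = 0.313).

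Ppp1r1a (ENSRNOG00000036827, chromosome 7, 145146481 to 145154131), which encodes an inhibitor of protein phosphatase 1, measured 68.2, 49.0, 80.1 and 70.4 rescaled FPKM with saline and 61.9, 55.3, 61.1 and 89.6 with cyclosporine A. Cyclosporine A replicate 4 was the highest of the 8 libraries, and the means of 66.9 and 67.0 gave a log2 change of −0.0023 (95% interval −0.41 to 0.41, limma adjusted p = 0.996). Esrrb (ENSRNOG00000010259, chromosome 6, 110410141 to 110455906), an orphan nuclear receptor gene, measured 0.732, 0.582, 0.996 and 0.565 rescaled FPKM with saline and 0.408, 0.427, 0.198 and 1.49 with cyclosporine A. The latter rest on 10, 15, 6 and 26 fragments, and the log2 change of −0.13 (95% interval −0.60 to 0.34, limma adjusted p = 0.819) did not pass. In 3 of the 4 drug libraries Esrrb lay below every saline library and in replicate 4 above all of them, and without that library the change was −0.35 (limma adjusted p = 0.203). As for Casr, the scale understates changes at this level, and with a pseudocount of 0.1 in place of 1 the change was −0.43 (limma adjusted p = 0.716).

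One library stood at the edge of its group for every gene. Cyclosporine A replicate 4, whose mitochondrial share of 90.8% was the highest of the 8, gave the lowest value of the 4 drug libraries in 4 genes (Umod, Slc12a1, Cldn10 and Cldn16) and the highest in the other 6. Without it the log2 changes of Umod, Slc12a1 and Cldn10 were −1.20, −0.81 and −0.32, and those of Kcnj1, Casr and Ppp1r1a were −0.20, −0.026 and −0.15, so that Casr changed sign. Among marker lists of other cell types, 4 of 4 tested urothelial genes had higher means with cyclosporine A and 1, Upk1a, was called (limma adjusted p = 0.0196), with a summed level of 1.64 to 4.20 rescaled FPKM in saline libraries and 7.29 to 17.8 in drug libraries. The 5 tested markers of the distal convoluted tubule included 1 called lower, Calb1, with a summed level of 54.2 to 79.3 with saline and 25.4 to 35.1 with cyclosporine A, and Pvalb was at 0 in all libraries. That lower sum rests on Calb1, with a log2 change of −1.85, since the other 4 were not called, Slc12a3 at 0.27, Klhl3 at 0.24, Trpm6 at −0.064 and Slc8a1 at −0.16. Of 8 proximal tubule markers 1 was called higher, Slc5a2 at 0.94 (limma adjusted p = 0.0384), while 5 had a change below 0 and the summed level was 183 to 290 with saline and 121 to 353 with the drug. The 4 tested tubular injury genes all had higher means and none was called, with a median log2 change of 0.55 and a summed level of 113 to 181 and 148 to 330. Of 4 endothelial markers none was called, and Plvap, at −1.97 (limma adjusted p = 0.0676), separated without overlap, with list sums of 14.5 to 31.9 and 9.90 to 19.7. The 4 matched inner medulla and thin limb markers, of which Slc14a2 is listed under 2 gene identifiers, summed to 342 to 492 and 178 to 332 with none called. No podocyte or leukocyte marker was called either. The 5 principal cell markers summed to 144 to 203 and 136 to 231 rescaled FPKM, the 5 intercalated cell markers to 99.2 to 189 and 134 to 253, and neither list had a called gene. Among all 13455 tested genes 0.282% were called lower and 0.327% higher, and 50.1% had a change below 0. All drug libraries lay below all saline libraries in 6.11% and above in 4.81%. Below lay 2 proximal tubule markers and 1 each of distal convoluted tubule, endothelium and inner medulla. Above lay 2 proximal tubule, 2 principal cell and 2 urothelial markers, 1 podocyte marker and 1 injury gene. The part of the mitochondrial share and of these cell types in the thick ascending limb values was not tested.

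On FPKM as deposited, whose depth term counts mitochondrial fragments too, all 10 genes were called lower by limma, as were 80.9% of the 13455 genes tested. All 10 also separated without overlap, as 67.9% of genes did below vehicle. The median of the 10 was −1.36 against −0.89 for all genes. The pseudocount of 1 shrinks the changes of low genes, so the gap between these medians does not measure a larger fall. On rescaled FPKM the medians were −0.12 and −4.84e-04. Umod at −2.68, Slc12a1 at −2.24 and Cldn10 at −1.74 lay furthest below, and Cldn16 at −0.81, Esrrb at −0.68 and Casr at −0.41 lay above the median of all genes. Casr and Esrrb are low enough for the pseudocount to shrink their changes, so their place above that median does not show a smaller fall. Umod, Slc12a1, Cldn10 and Ptger3 were the lowest 4, in that order, on both scales.

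**Figure D2:**
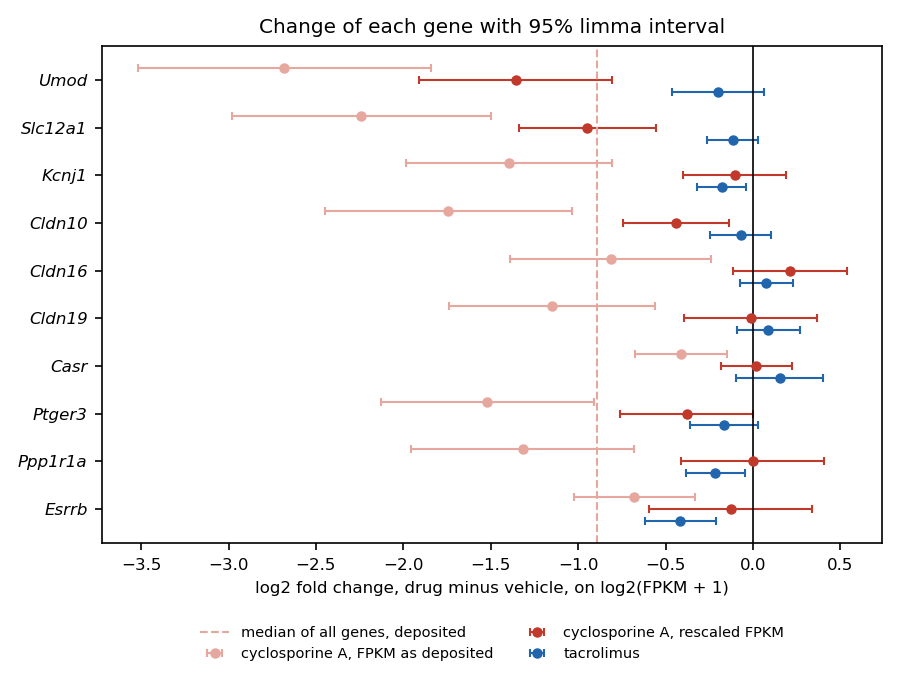
Log2 fold change of each gene, drug minus vehicle on log2(FPKM + 1), with 95% limma intervals not adjusted for the number of genes, for cyclosporine A on deposited FPKM (pale red), cyclosporine A on rescaled FPKM (red) and tacrolimus (blue). The dashed line is the median of all genes on deposited FPKM, −0.89, and on rescaled values Umod at −1.36 and Slc12a1 at −0.95 stand furthest from 0.

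Ratios taken within a library do not depend on how libraries were scaled, so the other genes were also read per unit of Slc12a1. The ratio to Slc12a1 separated the groups without overlap for 7 of the other 9 genes, in each case higher with cyclosporine A. Among all genes tested, 46.9% did the same, since Slc12a1 is the divisor for each. The Cldn16 ratio was 0.0589, 0.0694, 0.0553 and 0.0421 with saline and 0.136, 0.135, 0.118 and 0.135 with cyclosporine A. All drug libraries exceeded all saline libraries, by 1.24 on the log2 scale on average, and the drug libraries were close to one another. The Cldn10 ratio was 0.953, 1.13, 0.879 and 0.896 with saline and 1.45, 1.35, 1.30 and 1.41 with cyclosporine A, again a narrow set of drug values, 0.52 higher on the log2 scale. Kcnj1 per Slc12a1 averaged 0.517 ± 0.0832 and 0.975 ± 0.376 (SD, n = 4 each), and Ppp1r1a per Slc12a1 1.1 ± 0.0796 and 2.31 ± 1.1. In both, the spread of the drug libraries came largely from replicate 4, at 1.53 for Kcnj1 and 3.92 for Ppp1r1a.

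Umod per Slc12a1 was the one ratio with a lower mean under cyclosporine A. It was 7.46, 5.06, 4.53 and 4.49 with saline and 3.87, 3.65, 4.75 and 3.83 with cyclosporine A. Only replicate 3 of the drug libraries reached into the saline range. The mean log2 difference was −0.39 (exact 2-sided permutation p = 0.0857, 0.171 after adjustment over 2 ratios, with 0.0286 the smallest p that the design allows), smaller than the test can separate from the spread between libraries.

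**Figure D3:**
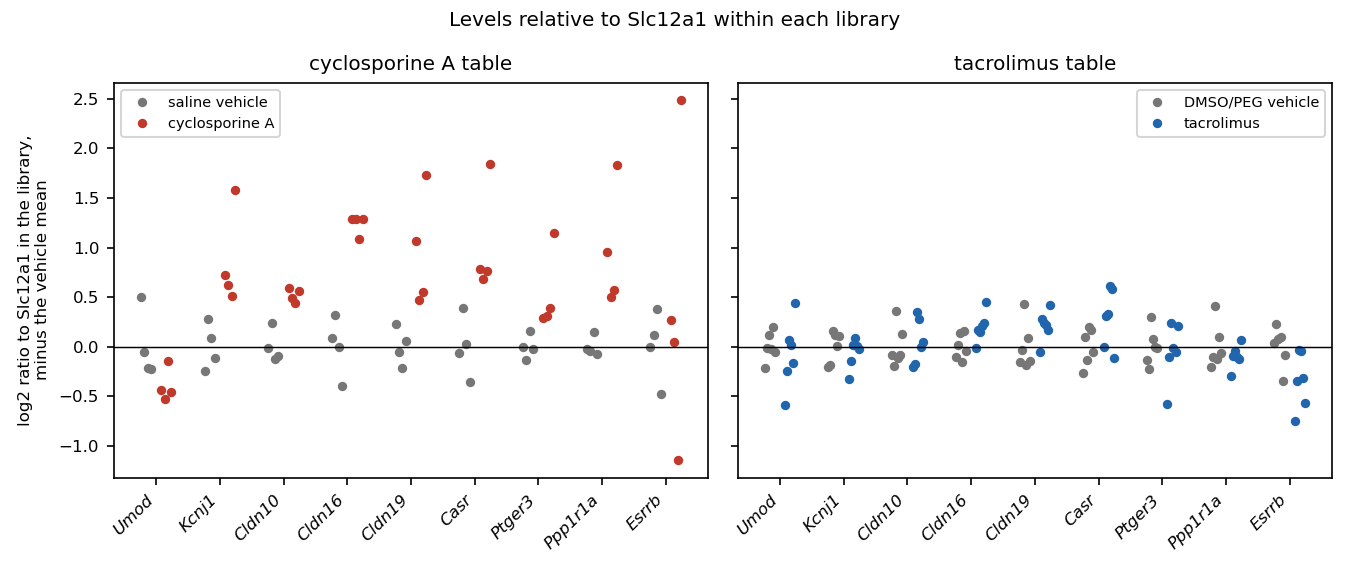
Log2 ratio of each gene to Slc12a1 within the same library, after subtracting the vehicle mean, for the cyclosporine A table (left) and the tacrolimus table (right), 1 point per library. With cyclosporine A the points of Cldn10 and Cldn16 form tight sets above the saline points, and with tacrolimus every gene overlaps its vehicle.

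No gene of the 10 passed the test with tacrolimus, and the log2 changes ran from −0.42 for Esrrb to 0.15 for Casr. limma called 0 of the 10, against 0.303% of 15493 tested genes, and at an unadjusted p under 0.05 there were 3 lower and 0 higher, against 4.87% and 3.7% of all genes. No gene of the 10 separated without overlap, against 0.671% of genes below vehicle and 0.303% above. The log2 change was below 0 in 7, against 50.2% of genes, and the median log2 change was −0.14 beside −3.25e-04 for all genes. The 3 with a nominal p were Esrrb, Kcnj1 and Ppp1r1a, none of them among those that stood lowest with cyclosporine A.

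Umod ran from 1828 to 2292 FPKM with DMSO/PEG (median 1909, n = 6) and from 1380 to 2365 with tacrolimus (median 1640, n = 6). Tacrolimus replicate 6 was the highest of the 12 libraries while the other 5 tacrolimus libraries lay below the lowest vehicle library. The means were 1952 ± 173 and 1718 ± 336 FPKM (SD, n = 6 each), a log2 change of −0.20 (95% interval −0.46 to 0.065, limma adjusted p = 0.718). Without tacrolimus replicate 6 it was −0.30 and did not pass (limma adjusted p = 0.306). Slc12a1 ran from 248 to 296 FPKM with vehicle (median 274) and from 223 to 290 with tacrolimus (median 245). Its ranges overlapped over most of their width, with a log2 change of −0.12 (95% interval −0.27 to 0.031, limma adjusted p = 0.708).

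Kcnj1 ran from 91.8 to 121 FPKM with vehicle (median 113) and from 91.6 to 101 with tacrolimus (median 97.2). The lowest vehicle library lay at the bottom of the tacrolimus range, and the log2 change was −0.18 ± 0.064 (standard error, limma adjusted p = 0.413). Among the claudins, Cldn10 had medians of 90.9 and 84.0 FPKM, Cldn16 15.5 and 16.8, and Cldn19 22.6 and 24.3, vehicle first. Their ranges overlapped, and the log2 changes of −0.071, 0.076 and 0.088 had limma adjusted p-values of 0.892, 0.854 and 0.858.

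Casr ran from 7.94 to 11.1 FPKM with vehicle (median 9.43) and from 7.88 to 13.1 with tacrolimus (median 10.9), a log2 change of 0.15 (limma adjusted p = 0.792). Ptger3 had medians of 33.7 and 29.9 FPKM and a change of −0.16 (limma adjusted p = 0.671). Ppp1r1a ran from 107 to 147 FPKM (median 116) and from 96.8 to 114 (median 104), a change of −0.22 ± 0.077 (standard error, limma adjusted p = 0.419). Esrrb showed the largest difference of the 10 in this table. It ran from 8.08 to 11.2 FPKM with vehicle (median 10.3) and from 6.03 to 8.37 with tacrolimus (median 7.54), and the lowest vehicle library, replicate 5, was the one that reached into the tacrolimus range. The means were 10.1 ± 1.22 and 7.31 ± 0.937 FPKM (SD, n = 6 each), a log2 change of −0.42 ± 0.093 (standard error, limma adjusted p = 0.12). Without DMSO/PEG replicate 5 the change was −0.47 and passed (limma adjusted p = 0.0496), and over the 12 libraries left out in turn the adjusted p ran to 0.233.

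**Figure D4:**
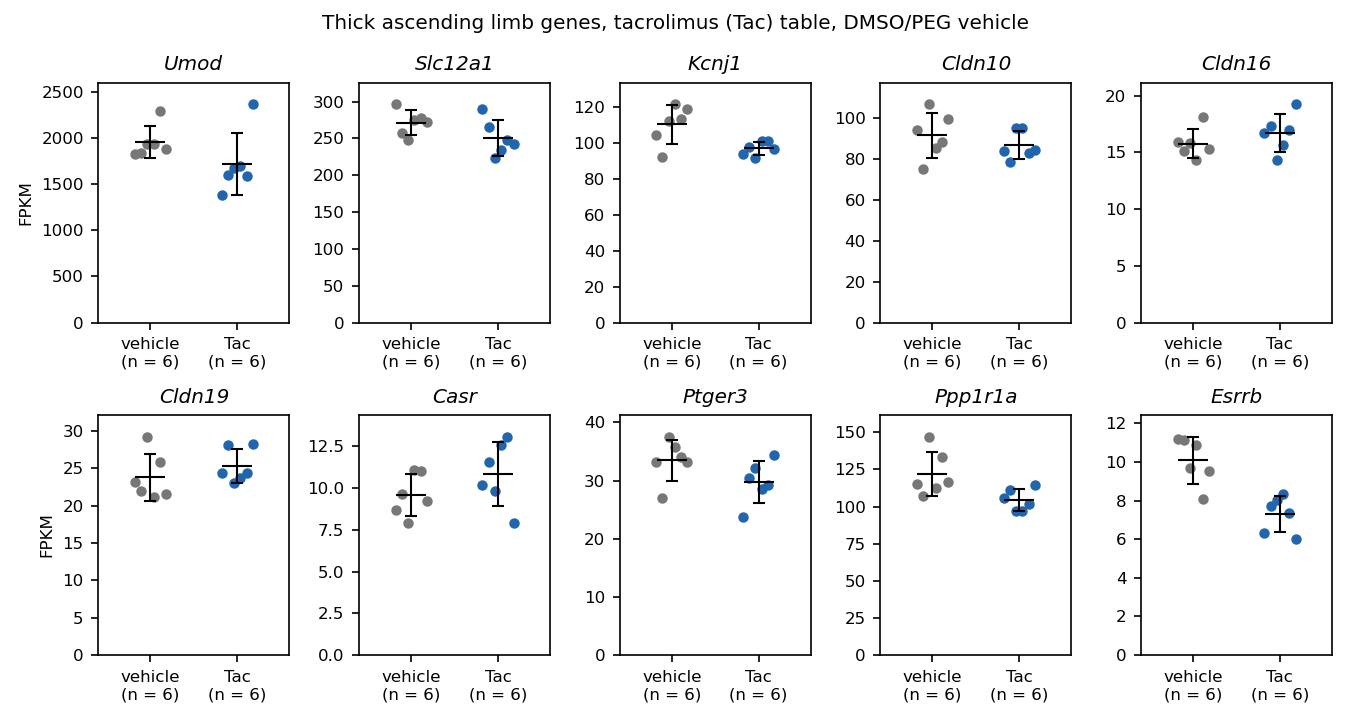
FPKM of the 10 genes in the 6 DMSO/PEG vehicle and 6 tacrolimus (Tac) libraries, 1 point per library in replicate order, with the mean and SD as black bars and a separate vertical axis from 0 for each gene. The sets of points overlap for all 10 genes, and for Esrrb they meet between 8.08 and 8.37.

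Ratios within the tacrolimus libraries moved little. All 9 ratios to Slc12a1 overlapped between tacrolimus and vehicle, where 0.503% of genes had a ratio above and 0.297% one below in every drug library. Umod per Slc12a1 averaged 7.22 ± 0.723 with vehicle and 6.96 ± 1.68 with tacrolimus (SD, n = 6 each), a mean log2 difference of −0.082 (exact 2-sided permutation p = 0.610, adjusted 0.610). Cldn16 per Slc12a1 had medians of 0.0576 and 0.0661, vehicle first, with ranges of 0.0520 to 0.0650 and 0.0575 to 0.0793.

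The change with cyclosporine A was then set against the change with tacrolimus, as the first minus the second. Vehicle and table changed along with the drug, and the 3 cannot be told apart in this difference. For 2 of the 10 genes the difference passed, against 0.769% of 13392 genes with a lower call and 0.859% with a higher one. Slc12a1 differed by −0.83 (95% interval −1.24 to −0.42, adjusted p = 0.0482 from the limma-based test) and Umod by −1.16 (95% interval −1.75 to −0.57, adjusted p = 0.04999), both just inside the threshold. Slc12a1 kept the call in 10 and Umod in 5 of the 20 fits that left out 1 library, with adjusted p-values of 0.0434 to 0.146 and 0.0331 to 0.127 and differences of −0.95 to −0.69 and −1.33 to −0.97. The Umod call was kept without cyclosporine A replicate 3, tacrolimus replicates 1 or 5, or DMSO/PEG replicates 3 or 5, and lost without any other library. The Slc12a1 call was lost without saline replicates 1, 3 or 4, cyclosporine A replicates 1, 2 or 4, tacrolimus replicates 1 or 2, or DMSO/PEG replicates 2 or 3. Without cyclosporine A replicate 4 neither passed (limma-based adjusted p = 0.0564 and 0.0753).

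For the other 8 genes the difference did not pass. Cldn10 came closest, at −0.37 (95% interval −0.70 to −0.035, limma-based adjusted p = 0.263). Kcnj1 differed by 0.075 (−0.24 to 0.39), Cldn16 by 0.14 (−0.21 to 0.48), Cldn19 by −0.10 (−0.51 to 0.31) and Casr by −0.13 (−0.44 to 0.17), intervals at 95%. Ptger3 differed by −0.21 (−0.62 to 0.20), Ppp1r1a by 0.21 (−0.22 to 0.64) and Esrrb by 0.29 (−0.21 to 0.78). Intervals of this width do not show that the drugs acted alike on these genes. Casr and Esrrb averaged 0.458 and 0.719 rescaled FPKM with saline, where the pseudocount of 1 shrinks the cyclosporine A change. With DMSO/PEG they averaged 9.60 and 10.1 FPKM, where it shrinks the tacrolimus change less. Their differences therefore set unlike scales against each other. On deposited FPKM, which carries the shift in mitochondrial share, 9 of the 10 differences passed, all lower, as did 74.9% of genes with a lower call, and Esrrb did not (−0.27, adjusted p = 0.201).

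Further genes of the segment were read from lists of its basolateral salt exit and pump, its NKCC2 kinases and hormone inputs, its other identity genes and the macula densa, the sensor plaque at its end. None of the 9 salt exit and pump genes was called for either drug, where 0.282% of all genes were called lower and 0.327% higher with cyclosporine A and 0.303% in either direction with tacrolimus. With cyclosporine A 8 of the 9 had a change below 0, against 50.1% of genes, and in 2 all drug libraries lay below all saline libraries, against 6.11%. With tacrolimus 6 had a change below 0, against 50.2%. Their median log2 change was −0.14 with cyclosporine A and −0.025 with tacrolimus, beside −4.84e-04 and −3.25e-04 for all genes.

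Of the 9 tested NKCC2 kinase and hormone genes, 0 were called with cyclosporine A and 1 with tacrolimus, against 0.282% lower and 0.327% higher of all genes for the first drug and 0.303% in either direction for the second. That gene was Wnk1, which encodes a kinase upstream of the kinases SPAK and OSR1 that phosphorylate NKCC2. It ran from 31.1 to 37.3 FPKM with vehicle (median 34.2) and from 18 to 20.8 with tacrolimus (median 18.9). The ranges were far apart, a log2 change of −0.81 (limma adjusted p = 1.69e-05). With cyclosporine A the Wnk1 change was 0.0089 (limma adjusted p = 0.983), and the difference between the drugs, 0.82, passed on rescaled FPKM (limma-based adjusted p = 0.0162) but not on deposited FPKM, where it was −0.34 (0.263). Without saline replicates 1, 3 and 4 it was 0.85, 0.79 and 0.73 and did not pass (limma-based adjusted p = 0.0544, 0.0545 and 0.0672). Wnk1 is also transcribed from a kidney promoter of the distal convoluted tubule, and 5 of the 5 tested markers of that segment were called lower with tacrolimus, against 0.303% of all genes called in either direction, their summed FPKM running from 291 to 366 with vehicle and from 51.1 to 78.7 with the drug. The part of that segment in the Wnk1 value was not tested. Across the 9 kinase and hormone genes, 2 had a change below 0 with cyclosporine A, against 50.1% of genes. In 1 of them all drug libraries lay above all saline libraries, against 4.81%. With tacrolimus 7 were below 0, against 50.2%, and 1 separated below vehicle, against 0.671%. The median log2 changes were 0.20 with cyclosporine A and −0.068 with tacrolimus.

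Of the 13 tested identity genes, 1 was called lower with each drug, against 0.282% of all genes called lower with cyclosporine A and 0.303% called in either direction with tacrolimus. With cyclosporine A it was Cldn3, a barrier claudin gene of the distal tubule, at 11.3, 9.50, 8.28 and 7.74 rescaled FPKM with saline and 3.82, 4.96, 4.37 and 5.17 with the drug. The drug libraries were all lower, a log2 change of −0.87 (limma adjusted p = 0.0356). That call held in 1 of the 8 fits that left out a library, the one without cyclosporine A replicate 4 (limma adjusted p = 0.0364), and the other 7 gave 0.0503 to 0.12. With tacrolimus it was Egf, the gene of the epidermal growth factor precursor, which the distal convoluted tubule also makes. Egf ran from 47.5 to 59.8 FPKM with vehicle and from 22.3 to 30.7 with tacrolimus, a log2 change of −0.93 (limma adjusted p = 9.54e-05). With cyclosporine A the Egf change was −0.41 (limma adjusted p = 0.538), with 7.76, 2.95, 3.26 and 2.58 rescaled FPKM in the saline libraries and 1.48, 2.75, 3.76 and 2.81 in the drug libraries. The high saline replicate 1 is the library that was also highest for Umod, and without it the Egf change was −0.12 (limma adjusted p = 0.886). The drug difference in Egf, 0.51, did not pass (limma-based adjusted p = 0.456). Across the 13 identity genes, 10 had a change below 0 with cyclosporine A, against 50.1% of genes. In 3 of them all drug libraries lay below all saline libraries, against 6.11%. With tacrolimus 8 were below 0, against 50.2%, and 1 separated below vehicle, against 0.671%. The median log2 changes were −0.31 with cyclosporine A and −0.051 with tacrolimus.

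Of the 13 identity genes, the difference between the drugs passed for 2, both lower, and for 0 higher, against 0.769% and 0.859% of 13392 genes. For Cldn3 it was −0.74 (limma-based adjusted p = 0.0448), and it passed in 8 of the 20 fits that left out a library, those without cyclosporine A replicate 4, tacrolimus replicates 1, 4 or 5, or DMSO/PEG replicates 1, 2, 3 or 5. The other gene was Pou3f3, a transcription factor gene of the developing and adult distal nephron, which was named after its values were seen. It measured 14.9, 13.0, 16.9 and 15.2 rescaled FPKM with saline and 11.4, 10.2, 10.1 and 11.3 with cyclosporine A. All drug libraries were lower, but the change of −0.44 did not pass by itself (limma adjusted p = 0.0951), nor did 0.23 with tacrolimus (limma adjusted p = 0.379). The Pou3f3 difference was −0.67 (limma-based adjusted p = 0.0203), and it passed in 17 of 20 such fits and not without saline replicates 1, 3 or 4 (0.0750, 0.0588 and 0.0817).

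The macula densa genes were near the floor in whole kidney. With cyclosporine A, 2 of 3 were tested and 0 called, against 0.282% of genes lower and 0.327% higher. Nos1, the neuronal nitric oxide synthase gene, measured 0.124, 0.0836, 0.0941 and 0.139 rescaled FPKM with saline and 0.0764, 0.0467, 0.0232 and 0 with the drug, from 19 to 47 and from 0 to 8 fragments. All drug libraries were below all saline libraries, as for 6.11% of tested genes, and the drug mean was 0.332 of the saline mean. At this level the log2 change depends on the pseudocount, −0.099 with 1 (limma adjusted p = 0.500) and −0.65 with 0.1 (limma adjusted p = 0.394), and neither passed. On deposited FPKM Nos1 was called lower, at −0.20 (limma adjusted p = 0.0441), as were 80.9% of tested genes. Ptgs2, the cyclooxygenase-2 gene, had a change of −0.032. With tacrolimus 3 of 3 were tested and 0 called, against 0.303% of genes, and Nos1, Ptgs2 and Pappa2 had changes of 0.059, −0.070 and −0.090.

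Within groups the 10 genes did not vary as 1 block. After each group was centred on its mean, Pearson correlations of log2(FPKM + 1) over the 45 pairs had a median of 0.27 in the 8 libraries of the cyclosporine A table, from −0.83 to 0.93, and of 0.078 in the 12 libraries of the tacrolimus table, from −0.76 to 0.94. Slc12a1 and Cldn10 correlated at 0.93 in the first table and −0.35 in the second. Umod and Slc12a1 correlated at 0.77 and −0.35. These are descriptions: the values of a pair come from the same libraries, which differ in depth and mitochondrial share.

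The genes outside the 10 that varied most like Umod were sought among 4831 genes with a mean of at least 5 FPKM in both tables, by the lower of the 2 within-group correlations over 8 and 12 libraries. Emc3 (lower r of 0.88), Idh3g (0.86), Paqr5 (0.83) and Nadk (0.83) were among the 5 most alike. None of these 4 was called for either drug, and their log2 changes with cyclosporine A ran from −0.40 for Nadk to 0.0013 for Idh3g. For Slc12a1 the likeness was weaker. Septin8 (lower r of 0.68), Adtrp (0.64), Eif5b (0.62), RGD1310352 (0.59) and NEWGENE_1310561 (0.56) led, and none was called for either drug.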

How the data were processed

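Per the labels' protocols, total RNA of whole kidneys was made into libraries with an NEBNext kit. HISAT2 and the genome build rn6 are named in the submitters' processing notes, with no version. The counting program is not given in the sources used here. The authors deposited FPKM, judged from the values, 1 table per drug with its vehicle. The authors' values came out as whole fragments (within 0.01) at the listed gene length for 74.6% of values in the cyclosporine A table and 100% in the tacrolimus table. In the former, 4441 of 18892 detected genes, Slc12a1, Kcnj1, Cldn10, Casr and Ptger3 among them, were whole only with a shorter length, which was then used for fragments. A gene entered the test with 15 fragments in all and with 10, at the median library size, in at least the number of libraries of the smaller group. The test was limma 3.58.1 under R 4.3.3 applied to log2(FPKM + 1), on rescaled FPKM for cyclosporine A, with group as the single term, a trend, Benjamini-Hochberg adjustment over all tested genes and a threshold of 0.05. The difference between the drugs used both standard errors with Satterthwaite degrees of freedom. Ratios were tested by exact permutation. The fit was tested on simulated data.

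Positions are as deposited. Promoter windows come from another assembly and were matched by symbol. Of 36 pathway genes, the rule named those called with either drug, otherwise the 3 with the smallest p of a list; Sorl1, Slc5a3 and Pecam1 of the lists were not matched. Some genes that these rules take are not reported here. The 10 genes, the lists and the rescaling were chosen with earlier results of these data known. Alternatives were other scalings, pseudocounts, filters, library weights, a replicate block and leaving out each library. Same-numbered libraries of drug and vehicle correlated at −0.15 to 0.21 and at −0.15 to 0.18 in the 2 tables, and the labels do not say that numbers mark pairs. Libraries of a group differed by a chi-square per degree of freedom of 22.4 to 197 and 17.6 to 106, and each was counted as 1 sample.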

Additional observations from a re-analysis of the deposited data

Results flagged for a closer look

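Umod was furthest from the rest in 1 library of each group of the tacrolimus table. DMSO/PEG replicate 5 measured 2292 FPKM, with the next highest vehicle library at 1940, and tacrolimus replicate 6 measured 2365 FPKM, with the next highest tacrolimus library at 1695. These are 2 of 44 sets of values looked at in this way, and chance alone gives about 1 in 20. Tacrolimus replicate 6 also had the highest mitochondrial share of the 12 libraries, 15.9%, and was the highest of its group for 5 of the 10 genes and the lowest for 2, Casr and Esrrb. The part of that share in the Umod value was not tested.

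The difference between the 2 drug comparisons passed the limma-based test narrowly for Umod and Slc12a1. It was −1.16 on the log2 scale for Umod (limma-based adjusted p = 0.04999) and −0.83 for Slc12a1 (limma-based adjusted p = 0.0482). Of 24 alternatives run for each gene, 7 kept the Umod call and 12 the Slc12a1 call. In both the cyclosporine A change was the lower. Drug, vehicle and table cannot be told apart in these differences.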

How the results depend on the processing

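The sign of the Umod and Slc12a1 changes with cyclosporine A was below 0 under all 16 alternatives run for each, from −2.68 to −1.17 and from −2.24 to −0.81, while the Umod call held in 5 and the Slc12a1 change passed in 6. Genes changed by cyclosporine A, 82 in the report, numbered 10911 on deposited FPKM, 1 with no filter on low values, 136 with at least 1 FPKM, 6 with the replicate block, 151 with library weights and 1 to 139 with 1 library left out. The count among the 10 genes, 1 in the report, was 10 on deposited FPKM, 2 with nuclear-fragment scaling, pseudocount 5, at least 1 FPKM or library weights, 0 with pseudocount 0.1, no filter or the replicate block, and 0 to 1 with 1 library left out. With tacrolimus, 77 genes were called with library weights against 47, 37 to 50 with 1 library left out, and 0 to 1 of the 10. The difference between the drugs, 218 genes and 2 of the 10, gave 10068 and 9 on deposited FPKM, 0 of the 10 with pseudocount 0.1 or the replicate block, and 27 to 267 genes and 0 to 2 of the 10 with 1 library left out. The replicate block, on numbers that the labels do not say mark pairs, gave Umod an adjusted p of 0.0857 by limma and the Umod to Slc12a1 ratio an exact permutation p of 0.25 with cyclosporine A and 0.562 with tacrolimus. Leaving out 1 library moved the ratio difference from −0.48 to −0.23 and from −0.19 to 0.020. Signs turned on deposited FPKM for cyclosporine A changes of Cldn16 (−0.81), Casr (−0.41) and Wnk1 (−1.14) and for drug differences of Kcnj1 (−1.21), Cldn16 (−0.89), Ppp1r1a (−1.10), Esrrb (−0.27), Wnk1 (−0.34) and Egf (−0.47), and with nuclear-fragment scaling for Cldn19 (0.068) and Ppp1r1a (0.090). With 1 library left out, these changes with cyclosporine A crossed 0: Cldn19 (−0.14 to 0.072), Ppp1r1a (−0.15 to 0.090), Esrrb (−0.35 to 4.1e-05), Casr (−0.026 to 0.052), Wnk1 (−0.079 to 0.089) and Ptgs2 (−0.10 to 0.018), and so did the Kcnj1 difference (−0.021 to 0.15). The cause was not tested. Among the 10 genes, depth limits Esrrb and Casr most, with 6 to 65 and 30 to 131 fragments in the cyclosporine A table.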
